A study of Mus musculus with 6 samples.

Results

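Mouse chromosome 7, which carries Hras and Ccnd1, was followed by array-CGH along its length in forestomach epithelia and stroma. The members were the non-control probes that the array's design places on chromosome 7 of the mm8 build, 3006 of the 42404 probes of the array. They ran from base 3215773 to base 145131345, with a median distance of 16692 bp between starts. No filter on low values was applied, and 2989 of them had a value on all 6 arrays.

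The study compared genomic DNA of Tgfbr2fspKO mice, which develop squamous cell carcinoma of the forestomach, with DNA of Tgfbr2flox/flox mice. Epithelia and stroma of 3 Tgfbr2fspKO mice were collected by laser capture, each tissue from every mouse, and hybridized on 6 arrays. Cy3 marked this test DNA, and Cy5 marked the reference, DNA of laser captured normal forestomach epithelia of Tgfbr2flox/flox mice. The strain was C57Bl/6, and both Tgfbr2 alleles were floxed in test and reference mice alike. The tumor-bearing mice used for laser capture were 5 weeks old. Whether the reference DNA was pooled over mice is not given in the sources used here. In Tgfbr2fspKO mice Cre was driven by the FSP1 promoter, so Tgfbr2 was deleted in FSP1+ stromal fibroblasts and not by design in the epithelia. Epithelia and stroma were told apart by morphology. No Tgfbr2flox/flox sample and no normal stroma was hybridized as a test sample, and dyes were not swapped, so the spread of control mice was not measured and an effect of the dyes cannot be told apart from a difference between test and reference.

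Hras encodes a small GTPase that carries growth factor signals to the MAP kinase cascade, and its mutation is the classic initiating event of chemically induced squamous tumors of mouse skin. Ccnd1 encodes cyclin D1, which activates CDK4 and CDK6 and drives cells from G1 towards S phase. In mouse skin tumors, gain of chromosome 7 is a well known way to raise the dose of a mutated Hras allele, and the Ccnd1 region is amplified in many human squamous carcinomas.

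Array-CGH reads DNA dose as the ratio of test to reference signal at each probe. All levels below are log2 ratios of test over reference after subtraction of the array's median over all non-control probes, so 0 is the middle of that array's genome and not a measured copy number of 2. On this scale 0.58 would stand for 3 copies in place of 2 in every cell, if the array did not compress ratios, which was not tested. Probes of chromosome 7 were well above background in both channels for 80.0, 74.5 and 96.8% in epithelia of mice 1 to 3. The same share was 76.1, 79.7 and 92.4% in the stroma. Mouse 3, on slide 2, had brighter arrays than mice 1 and 2, on slide 1, in both tissues. On all arrays at once 68.6% of chromosome 7 probes passed, against 71.2% of all probes.

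The spread between neighboring probes, as the scanner software gave it, was 0.469, 0.835 and 0.395 in the epithelia and 0.488, 0.396 and 0.419 in the stroma. Over the probes of chromosome 7 the SD was 0.53, 0.93 and 0.43 in the epithelia and 0.57, 0.47 and 0.46 in the stroma. The epithelia of mouse 2 stood apart from the other arrays in both measures.

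Chromosome 7 as a whole lay slightly above the array median in epithelia. Its mean level was 0.044, 0.10 and 0.079 in epithelia of mice 1 to 3, and 0.037, -0.047 and 0.046 in the stroma. All epithelial arrays were above 0, the stroma of mouse 2 was below 0, and the tissues overlapped, since the stroma of mouse 3 was higher than the epithelia of mouse 1. The medians over probes were 0.044, 0.095 and 0.081 in the epithelia and 0.0065, -0.032 and 0.039 in the stroma. Probes above 0 made up 53.8, 53.8 and 57.6% in the epithelia and 50.4, 47.0 and 53.8% in the stroma. Every epithelial array had more probes above 0 than below, and so had the stroma of mice 1 and 3. Over the 2062 probes of the chromosome that were well above background on all arrays, with the centering on all probes kept, the means were 0.068, -0.012 and 0.076 in the epithelia and -0.029, -0.042 and -0.017 in the stroma. With each array centered again on the median of such probes over the genome, they were 0.060, 0.085 and 0.090 and 0.035, -0.061 and 0.040. In the stroma of mice 1 and 3 and epithelia of mouse 2, the sign thus differed with the probes averaged and with the center.

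The mean of the epithelia was 0.075 ± 0.030 (SD, n = 3), with a 95% interval of limma's fit, whose spread is shared between tissues and chromosomes, from 0.014 to 0.14, and passed the threshold of 0.05 (limma over 20 chromosomes, adjusted p = 0.0449). This was 1 of 9 chromosomes past the threshold in epithelia in either direction, or 45.0% of those tested. Chromosomes 8, 15 and 19 were also higher, and chromosomes 1, 2, 12, 13 and 18 were lower. Of these 9, chromosome 7 had the smallest shift and the largest adjusted p. The upper limit of the interval for chromosome 7 was below the 0.58 of 3 copies in every cell. The exact sign-flip test over the 3 mice gave p = 0.25, two-sided, the smallest that 3 mice allow. The epithelial level was 0.073 within slide 1 (2 mice) and 0.079 within slide 2 (1 mouse). With the mouse as a block the adjusted p was 0.0821, and with the slide as a block 0.0716. Without the noisy epithelia of mouse 2, left out after the data were seen, the mean was 0.061 (limma adjusted p = 0.0307). The call was lost without mouse 1 (mean 0.091, limma adjusted p = 0.135) and without mouse 3 (mean 0.073, limma adjusted p = 0.377). It was also lost with normexp (limma adjusted p = 0.0598), with each tissue fitted alone (limma adjusted p = 0.0923) and with the methods' t-test (adjusted p = 0.121). Over probes well above background the mean was 0.078 after centering on them (limma adjusted p = 0.0175) and 0.044 with the centering on all probes kept (limma adjusted p = 0.235), a setting chosen after seeing the data.

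In stroma the mean was 0.012 ± 0.051 (SD, n = 3), with a limma 95% interval from -0.049 to 0.073 (limma adjusted p = 0.962), and 0% of chromosomes passed. Within slides it was -0.0050 and 0.046. Epithelia minus stroma of the same mouse was 0.0068, 0.15 and 0.032 in mice 1, 2 and 3, above 0 in each and farthest from 0 in mouse 2. The mean difference of 0.063 ± 0.076 (SD of the pairs, n = 3) had an unpaired limma 95% interval from -0.024 to 0.15 and missed the threshold (limma adjusted p = 0.255), while 15.0% of chromosomes passed. Leaving out mouse 2 in both tissues, the difference was 0.020, and it was 0.049 when only its epithelia were left out and its stroma was kept unpaired. Within slides the difference was 0.078 and 0.032. The exact permutation test of the tissues gave p = 0.2, two-sided, where 3 arrays against 3 cannot go below 0.1.

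Among the 20 chromosomes, chromosome 7 ranked 8, 5 and 6 from the highest in epithelia of mice 1 to 3. In the stroma it ranked 10, 17 and 3. Chromosome 8 was the highest in the mean of the epithelia, at 0.34, and chromosome 11, with nearly as many probes as chromosome 7, was at 0.069.

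Along the chromosome, 15 bins of 10 Mb held between 76 and 402 probes. Bin levels ran from -0.066 to 0.16 in the epithelia of mouse 1, from -0.28 to 0.36 in mouse 2 and from 0.0031 to 0.19 in mouse 3. In the stroma they ran from -0.14 to 0.40, from -0.15 to 0.13 and from -0.10 to 0.12. All 15 bins were above 0 in the epithelia of mouse 3, and 11 and 9 were in mice 1 and 2, against 9, 4 and 11 in the stroma. On all epithelial arrays together, 6 bins were above 0 (genome-wide 18.0% of 267 bins) and 0 below 0 (20.6%). In the stroma, 3 were above 0 on all arrays (21.3%) and 3 below 0 (15.0%).

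No bin of chromosome 7 passed the threshold in limma's fit over 267 bins. The count was 0 of 15 in epithelia, where 2.62% of all bins passed, 0 in stroma (0%) and 0 for the difference (0%). At an unadjusted p under 0.05, 2 bins were higher in epithelia (8.24% of all bins) and 0 lower (14.2%). These were the bins at 90 to 100 Mb and 140 to 145.1 Mb. In stroma 0 were higher (1.12%) and 0 lower (0%), and for epithelia minus stroma 0 were higher (4.12%) and 0 lower (6.37%).

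In epithelia the highest bins were the last one, 140 to 145.1 Mb, and the one at 20 to 30 Mb. The last bin stood at 0.036, 0.36 and 0.14 in epithelia of mice 1 to 3, with a mean of 0.18 ± 0.17 (SD, n = 3; limma adjusted p = 0.197). The bin at 20 to 30 Mb stood at 0.029, 0.28 and 0.082, with a mean of 0.13 ± 0.13 (SD, n = 3; limma adjusted p = 0.258). Both were above 0 in all 3 mice, and mouse 2 was the highest in both. Their means were, with that array left out, 0.088 and 0.055. The lowest epithelial means were at 130 to 140 Mb, with -0.023, -0.0024 and 0.033 and a mean of 0.0027 ± 0.029 (SD, n = 3; limma adjusted p = 0.989), and at 50 to 60 Mb. The mean at 130 to 140 Mb with the epithelia of mouse 2 left out was 0.0052. At 50 to 60 Mb the epithelia gave 0.12, -0.28 and 0.19, with a mean of 0.0094 ± 0.25 (SD, n = 3; limma adjusted p = 0.986), so that mouse 2 was far below the other mice, and without it the mean was 0.15. The bin at 90 to 100 Mb, named after its values were seen, was at 0.075, 0.075 and 0.12, close together in the mice, and its mean was 0.089 ± 0.024 (SD, n = 3; limma adjusted p = 0.204).

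In stroma the bins at 50 to 60 Mb and 100 to 110 Mb were the highest. The former stood at 0.40, 0.13 and 0.11, with a mean of 0.21 ± 0.16 (SD, n = 3; limma adjusted p = 0.986). The latter stood at 0.25, 0.025 and 0.066, with a mean of 0.12 ± 0.12 (SD, n = 3; limma adjusted p = 0.986). Both were above 0 in all 3 mice and highest in mouse 1, without which their means were 0.12 and 0.045. The lowest stromal bins were at 60 to 70 Mb, with -0.14, -0.0033 and -0.10 and a mean of -0.084 ± 0.072 (SD, n = 3; limma adjusted p = 0.986), and at 30 to 40 Mb, with -0.13, -0.14 and 0.051 and a mean of -0.073 ± 0.11 (SD, n = 3; limma adjusted p = 0.986). The bin at 60 to 70 Mb was below 0 in the stroma of every mouse, and that at 30 to 40 Mb was above 0 in mouse 3. With 1 mouse left out, the mean ranged over 0.12 to 0.27 at 50 to 60 Mb, 0.045 to 0.16 at 100 to 110 Mb, -0.12 to -0.054 at 60 to 70 Mb and -0.14 to -0.041 at 30 to 40 Mb.

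Epithelia minus stroma of the same mouse was highest in the last bin, at 0.031, 0.46 and 0.019 in mice 1, 2 and 3, with a mean of 0.17 ± 0.25 (SD, n = 3; limma adjusted p = 0.523). At 30 to 40 Mb it was 0.071, 0.43 and -0.0092, with a mean of 0.16 ± 0.23 (SD, n = 3; limma adjusted p = 0.571). In both bins mouse 2 gave most of the mean, and without that mouse the means were 0.025 and 0.031. It was lowest at 50 to 60 Mb, with -0.29, -0.41 and 0.080 and a mean of -0.20 ± 0.25 (SD, n = 3; limma adjusted p = 0.599), and at 100 to 110 Mb, with -0.091, -0.21 and 0.070 and a mean of -0.077 ± 0.14 (SD, n = 3; limma adjusted p = 0.821). Mouse 3 was above 0 in these bins and mice 1 and 2 were below. Without mouse 2 their means were -0.10 and -0.010, and with 1 mouse left out they ranged over -0.35 to -0.10 and -0.15 to -0.010. When only the epithelia of mouse 2 were left out and its stroma was kept unpaired, the mean at 50 to 60 Mb was -0.062 and that at 100 to 110 Mb turned to 0.035. All epithelial levels lay above all stromal ones in 2 bins, at 60 to 70 Mb and 70 to 80 Mb (genome-wide 10.1% of bins), and below them in 0 (10.1%).

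Over probes well above background, after centering on them, the means of the named bins, in the order above and without that at 90 to 100 Mb, were 0.19, 0.12, -0.00036 and 0.072 in epithelia, 0.17, 0.14, -0.13 and -0.11 in stroma and 0.20, 0.21, -0.097 and -0.079 for the difference. With the centering on all probes kept, a setting chosen after seeing the data, they were 0.16, 0.085, -0.035 and 0.037 in epithelia, 0.13, 0.10, -0.16 and -0.15 in stroma and 0.20, 0.21, -0.097 and -0.080 for the difference. With normexp they were 0.14, 0.10, 0.0013 and 0.0073 in epithelia, 0.15, 0.079, -0.086 and -0.041 in stroma and 0.11, 0.12, -0.14 and -0.060 for the difference.

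Each array was also divided into stretches of even level, and a stretch was called where its mean lay beyond 0.25 from 0. This is a description with no test. On chromosome 7 the epithelia of mice 1, 2 and 3 had 0, 9 and 0 called stretches, and the stroma had 5, 2 and 0. Over all chromosomes the counts were 18, 45 and 10 in the epithelia and 35, 11 and 5 in the stroma. The arrays of mouse 3 and the epithelia of mouse 1 had no called stretch on chromosome 7.

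The epithelia of mouse 2 alternated between high and low stretches. Of its 13 stretches on chromosome 7, 7 were called higher and 2 lower, while 45 stretches were called on this array over all chromosomes. The called ones on chromosome 7 held 65.3% of the chromosome's probes. The same share over all chromosomes was not determined, so whether it is particular to chromosome 7 is not known. The highest was chr7:44869696-46575132, with 108 probes at -0.033, 0.69 and -0.039 in epithelia of mice 1 to 3 and -0.12, -0.22 and 0.090 in the stroma. The lowest was chr7:102479014-109233176, with 278 probes at 0.24, -0.38 and 0.17 in epithelia of mice 1 to 3 and 0.38, 0.082 and 0.11 in the stroma. In the former the epithelia of mouse 2 were the only array far above 0, and in the latter they were the only array below 0. At chr7:125425021-128552899 the levels were -0.11, 0.51 and 0.13 in epithelia of mice 1 to 3 and -0.11, -0.12 and 0.11 in the stroma, again with the epithelia of mouse 2 far above the rest.

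The stretches called higher in the epithelia of mouse 2 held fewer probes well above background, on this array and on others. In the epithelia of mouse 2, probes well above background in both channels made up between 53.7% and 73.5% in the stretches called higher, and between 77.1% and 86.0% in the others, with no overlap. In the same stretches the shares were 60.2 to 77.4% against 81.1 to 89.8% in the epithelia of mouse 1, 57.4 to 73.5% against 77.1 to 87.4% in the stroma of mouse 1 and 61.1 to 76.9% against 80.6 to 91.4% in the stroma of mouse 2, also with no overlap. On the arrays of mouse 3 the shares were 94.2 to 100% against 97.1 to 100% in the epithelia and 85.2 to 93.5% against 92.6 to 96.1% in the stroma, and overlapped. The stretches called higher held 23.8 to 63.3 probes per Mb and the others at most 41.2. When segmentation used only probes well above background, 2 stretches were called on chromosome 7 of this array, and 19 over all its chromosomes. Over the probes well above background on all arrays, with the centering on all probes kept, the mean of the epithelia of mouse 2 was 0.48 at chr7:44869696-46575132 (52 probes), 0.43 at chr7:125425021-128552899 (108 probes) and -0.42 at chr7:102479014-109233176 (230 probes). With that array centered again on such probes, the means were 0.58, 0.53 and -0.32. The stretches called higher at chr7:3215773-4909412, chr7:15025385-44853499, chr7:78717719-81571530 and chr7:97936573-102471207 were at 0.40, 0.29, 0.40 and 0.30 over all probes. Over such probes they were at 0.17, 0.19, 0.21 and 0.11 with the centering on all probes kept, below the limit of 0.25. After centering on such probes they were at 0.27, 0.28, 0.31 and 0.21.

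In the stroma of mouse 1 all 5 called stretches were higher. At chr7:108072897-108869025 the levels were 0.31, -0.56 and 0.12 in epithelia of mice 1 to 3 and 0.73, 0.18 and 0.22 in the stroma. At chr7:102583176-103665673 they were 0.29, -0.45 and 0.33 in epithelia of mice 1 to 3 and 0.68, 0.22 and 0.27 in the stroma. In both the stroma of mouse 1 was the highest array, the epithelia of mouse 2 were below 0, and every other array was above 0, all against the same kind of reference DNA. The stroma of mouse 2 had its 2 called stretches below 0, at chr7:43803595-46301398, with -0.28, and at chr7:78453877-80270664, with -0.27. The epithelia of the same mouse were at 0.54 and 0.36 there. On chromosome 7 in the stroma of mouse 2, 0 stretches were called with normexp, with loess or over probes well above background. Over all chromosomes the counts were 9, 9 and 5. At a penalty of 40 or a limit of 0.5 the count on chromosome 7 was also 0, against 1 and 6 over all chromosomes.

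Towards the distal end, near which Hras and Ccnd1 lie in the gene order of a later build, GRCm38, the last 10 Mb held 300 probes from base 135188979 on. The distal level was -0.00025, 0.30 and 0.12 in epithelia of mice 1 to 3, and -0.040, -0.087 and 0.072 in the stroma. The rest of the chromosome was at 0.048, 0.080 and 0.075 in the epithelia and 0.045, -0.042 and 0.044 in the stroma. Distal minus rest was therefore -0.049, 0.22 and 0.041 in the epithelia and -0.085, -0.045 and 0.029 in the stroma. The distal end was above the rest in the epithelia of mice 2 and 3 and in the stroma of mouse 3, below it on the other arrays, and the tissues overlapped.

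The mean of distal minus rest was 0.072 ± 0.14 (SD, n = 3) in epithelia, with a limma 95% interval from -0.060 to 0.20 (limma adjusted p = 0.395). In stroma it was -0.034 ± 0.057 (SD, n = 3), with a limma interval from -0.17 to 0.098 (limma adjusted p = 0.900). Epithelia minus stroma was 0.036, 0.27 and 0.012 in mice 1, 2 and 3, with a mean of 0.11 and an unpaired limma interval from -0.081 to 0.29 (limma adjusted p = 0.567). None of these passed, and of the 20 chromosomes 0% passed in epithelia, 0% in stroma and 0% for the difference. Exact sign-flip tests gave p = 0.75 in epithelia and 0.5 in stroma, and the exact permutation test of the tissues gave p = 0.3, all two-sided. Without the epithelia of mouse 2 the epithelial mean was -0.0039 in place of 0.072, so its sign rested on that array. Leaving out mouse 2 in both tissues, epithelia minus stroma was 0.024 in place of 0.11. Within slides 1 and 2 distal minus rest was 0.087 and 0.041 in epithelia, -0.065 and 0.029 in stroma, and 0.15 and 0.012 for the difference. Over the last 5 Mb in place of 10 the mean was 0.12 in epithelia, 0.0091 in stroma and 0.11 for the difference, and over the last 20 Mb it was 0.047 in epithelia, -0.045 in stroma and 0.092 for the difference. With normexp the mean over the last 10 Mb was 0.061 in epithelia, -0.0073 in stroma and 0.069 for the difference, and over probes well above background it was 0.059 in epithelia, -0.059 in stroma and 0.12 for the difference. With 1 mouse left out the stromal mean ranged over -0.065 to -0.0081.

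The last stretch of the epithelia of mouse 2, chr7:139461566-145131345, covered 5.67 Mb and 244 probes. Its levels were -0.0068, 0.39 and 0.14 in epithelia of mice 1 to 3 and -0.035, -0.093 and 0.098 in the stroma. The epithelia of mouse 2 were the only array past the limit for a call there. Distal probes were dimmer than the rest on every array: 72.3, 69.3 and 95.3% were well above background in the epithelia and 69.3, 72.7 and 88.7% in the stroma. In the rest of the chromosome the shares were 80.9, 75.1 and 96.9% and 76.9, 80.5 and 92.9%. Over the probes well above background on all arrays, with the centering on all probes kept, the mean of the epithelia of mouse 2 in its last stretch was 0.28 (141 probes), and 0.38 after centering on such probes.

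On GRCm38, whose coordinates were not used, Hras lies between Rnh1 and Lrrc56 and has 92 of the chromosome's 2030 protein-coding genes beyond it. Ccnd1 lies between LTO1 and Tpcn2, with 4 genes beyond it, next to the fibroblast growth factor genes Fgf15, Fgf4 and Fgf3. Probes were not paired with genes in the files, so no probe is given as the level of Hras or Ccnd1, and the distal level stands for the region only.

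Single probes of chromosome 7 were tested in the fit over all probes of the array. In limma 0 passed in epithelia (0.0236% of all probes), 0 in stroma (0.00472%) and 0 for the difference (0.0165%). At an unadjusted p under 0.05, 228 were higher in epithelia, or 7.58% against 6.42% of all probes, and 76 were lower, or 2.53% against 4.25%. In stroma 171 were higher, or 5.69% against 5.45%, and 177 lower, or 5.89% against 6.06%. For epithelia minus stroma 149 were higher, or 4.96% against 4.5%, and 53 lower, or 1.76% against 2.2%. The shares in stroma were close to those of all probes, and the share of low probes in epithelia was below that of all probes, a description with no test.

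The methods' t-test passed 143 of the chromosome's probes in epithelia (4.57% of all probes), 448 in stroma (14.0%) and 159 for the difference (5.31%) at the methods' unadjusted threshold, and 0, 0 and 0 after Benjamini-Hochberg adjustment. Fitted on the stromal arrays alone, limma passed 48 chromosome 7 probes as higher (1.60% against 1.28% of all probes) and 64 as lower (2.13% against 1.96%), both near the shares over the array. Of the probes with a value on all arrays, 270 had all epithelia above all stroma (9.03% against 7.73% of all probes) and 115 had all epithelia below (3.85% against 5.54%).

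Among 503 probes that were well above background everywhere and of 1 sign in the epithelia of all mice, given below with the mean ± SD of the 3 mice, the highest was A_53_P120802 (chr7:126288546-126288605), with epithelial levels of 0.25, 2.46 and 1.31 (mean 1.34 ± 1.1). A_53_P130946 (chr7:5793703-5793753) followed with 0.95, 1.71 and 1.21 (mean 1.29 ± 0.38), and A_53_P155794 (chr7:45858065-45858124) with 0.74, 2.30 and 0.82 (mean 1.29 ± 0.88). The epithelia of mouse 2 were the highest array at each of them, and without that array the means were 0.78, 1.08 and 0.78. The lowest was A_53_P157451 (chr7:18735950-18735996), with -1.14, -0.72 and -1.45 (mean -1.10 ± 0.37). A_53_P168140 (chr7:17880382-17880441) gave -0.50, -2.07 and -0.70 (mean -1.09 ± 0.85) and A_53_P173069 (chr7:44545941-44545985) gave -0.17, -2.26 and -0.41 (mean -0.95 ± 1.1). The epithelia of mouse 2 were the lowest array at the latter pair, and without that array the 3 means were -1.29, -0.60 and -0.29. The limma adjusted p of these 6 probes was 0.310 to 0.425, and none passed in a fit of the epithelial arrays alone.

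Among 1080 such probes in stroma, the highest was A_53_P104615 (chr7:110230036-110230095), with stromal levels of 1.75, 0.58 and 0.75 (mean 1.03 ± 0.63). Here and for the other lists, the count gives the size of the list ranked and was not compared with the share over all probes. A_53_P168161 (chr7:48420628-48420687) followed with 1.58, 0.57 and 0.83 (mean 0.99 ± 0.52) and A_53_P100085 (chr7:104766469-104766528) with 1.64, 0.58 and 0.69 (mean 0.97 ± 0.59). Mouse 1 was the highest at each, and without it the means were 0.67, 0.70 and 0.64. The lowest was A_53_P116037 (chr7:6727111-6727168), with -1.54, -1.34 and -0.87 (mean -1.25 ± 0.34). A_53_P112234 (chr7:83040334-83040393) gave -1.29, -1.40 and -0.96 (mean -1.21 ± 0.23) and A_53_P158514 (chr7:46875178-46875237) gave -1.49, -1.21 and -0.86 (mean -1.19 ± 0.31), with mouse 3 nearest to 0 at each of the low probes, whose means without mouse 1 were -1.11, -1.18 and -1.03. The limma adjusted p of these 6 probes was 0.333 to 0.356. Fitted on the stromal arrays alone, it was 0.0321 to 0.0485, so that all 6 were among the probes past the threshold in that fit. The spread then came from the stromal arrays only, and why more probes passed was not tested.

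For epithelia minus stroma, 606 probes qualified. A_53_P116037 (chr7:6727111-6727168) was the highest, with differences of 1.90, 1.81 and 1.14 (mean 1.62 ± 0.42) in mice 1, 2 and 3. A_53_P142633 (chr7:135188979-135189038), the first probe of the last 10 Mb, gave 1.96, 1.28 and 1.52 (mean 1.59 ± 0.34), and A_53_P155794 (chr7:45858065-45858124) gave 1.34, 3.11 and 0.12 (mean 1.52 ± 1.5). At the first pair the differences were above 1 in all 3 mice, and at the last probe mouse 2 was far above mouse 3. With mouse 2 left out the 3 means were 1.52, 1.74 and 0.73. The lowest were A_53_P100071 (chr7:27453354-27453413), with -1.27, -2.88 and -0.0014 (mean -1.38 ± 1.4), A_53_P168140 (chr7:17880382-17880441), with -0.70, -2.39 and -0.61 (mean -1.23 ± 1.0), and A_53_P120476 (chr7:56077755-56077814), with -1.74, -1.90 and -0.0025 (mean -1.22 ± 1.1). Mouse 2 was the lowest at each of these, and mouse 3 was near 0 at the first and last. Without mouse 2 these means were -0.64, -0.66 and -0.87. The limma adjusted p of these 6 probes was 0.691 to 0.736.

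Runs of 20 neighboring probes were ranked by their mean as a description, with no test. The highest run in epithelia was chr7:18222639-18435434, at -0.016, 1.08 and 0.19 in the epithelia and -0.075, -0.067 and 0.23 in the stroma. The lowest was chr7:16247805-17982632, at 0.10, -0.69 and -0.056 in the epithelia and 0.27, -0.010 and -0.066 in the stroma. Both ends were set by the epithelia of mouse 2. In stroma the highest run was chr7:102761681-103061387, at 0.24, -0.42 and 0.53 in the epithelia and 0.87, 0.34 and 0.47 in the stroma. The lowest was chr7:79610655-80100543, at 0.20, 0.37 and -0.16 in the epithelia and -0.42, -0.49 and -0.20 in the stroma. The stroma of all mice was above 0 in the former and below 0 in the latter. For epithelia minus stroma the highest run was chr7:79793557-80169451, at 0.39, 0.54 and 0.0046 in the epithelia and -0.35, -0.38 and -0.092 in the stroma. The lowest was chr7:108072897-108459063, at 0.30, -0.74 and 0.29 in the epithelia and 0.86, 0.19 and 0.30 in the stroma. In both, mouse 3 differed little between its tissues.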

How the data were processed

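The deposited intensity values were the processed test and reference signals of the authors' Feature Extraction 10.7.1.1 run, background-subtracted and dye-normalized. The deposited log10 values of the series table were the same software's ratios, of reference over test. Their sign was reversed before they entered an alternative. Outlier spots were left out, spots of a probe averaged and each array centered on its median. limma 3.58.1 (R 4.3.3) was fitted to 20 chromosome means, 20 distal differences, 267 bins of 10 Mb with at least 20 probes, and all probes, with Benjamini-Hochberg adjustment. Stretches came from least-squares segmentation (Python 3.11.15, penalty 20, at least 5 probes). Named bins were the 2 highest and 2 lowest, and named probes the 3 highest and 3 lowest, well above background and of 1 sign. Members and lists were chosen with earlier results of these data known. Per the labels, both tissues of a mouse were taken from 1 animal. Their deviations from the tissue means correlated at 0.0776, -0.0232 and 0.103 across probes, which are not independent. Between tissues of different mice these correlations ran from -0.19 to 0.11. The levels themselves correlated at 0.064, -0.060 and 0.59 between the tissues of mice 1, 2 and 3. Between mice the levels correlated at -0.094, 0.045 and 0.20 within epithelia and at 0.36 to 0.44 within stroma. The epithelia of mouse 3 correlated at 0.29 and 0.24 with the stroma of mice 1 and 2. Alternatives changed background correction, normalization, centering, dim probes, outliers, arrays, blocks, bin and distal lengths. The number of arrays limits the precision.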

Additional observations from a re-analysis of the deposited data

Results flagged for a closer look

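At 60 to 70 Mb of chromosome 7 every epithelial array was above 0 and every stromal array below 0. The levels were 0.027, 0.049 and 0.019 in the epithelia and -0.14, -0.0033 and -0.10 in the stroma, a difference of 0.11 ± 0.060 (SD, n = 3; limma adjusted p = 0.486), which missed the threshold. Probe A_53_P116037 had 0.37, 0.47 and 0.26 in the epithelia and -1.54, -1.34 and -0.87 in the stroma, a difference of 1.62 (limma adjusted p = 0.691). Probe A_53_P142633 had 1.47, 0.35 and 0.64 in the epithelia and -0.49, -0.93 and -0.88 in the stroma, a difference of 1.59 (limma adjusted p = 0.736). Both probes stood out because the tissues lay on opposite sides of 0 on every array, and they were picked for their size among many probes.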

How the results depend on the processing

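The mean level of chromosome 7 in epithelia stayed above 0 under every alternative run, with limma or t-test adjusted p between 0.0158 and 0.377, but its call was lost under several. It was 0.052 with normexp (limma adjusted p = 0.0598). It stayed at 0.075 with the mouse as a block, which pairs the tissues (limma adjusted p = 0.0821), with the slide as a block (0.0716), with each tissue fitted alone (0.0923) and with the methods' t-test, whose adjusted p was 0.121. Over probes well above background, with the centering on all probes kept and chosen after seeing the data, it was 0.044 in epithelia (limma adjusted p = 0.235) and turned to -0.029 in stroma. Leaving out 1 mouse gave 0.061 to 0.091, with the call lost without mouse 1 or 3. The stromal mean was -0.0050 to 0.042 without 1 mouse, and turned below 0 without mouse 1 or 3. The mouse block changed no other call.

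Distal minus rest in epithelia was -0.0039 to 0.13 without 1 mouse and -0.0039 without the epithelia of mouse 2 alone, an alternative chosen after seeing the data. It was 0.12 over the last 5 Mb and 0.047 over the last 20 Mb. In stroma it was 0.0091 over the last 5 Mb and 0.029 within slide 2, -0.0073 with normexp, -0.059 over probes well above background and -0.065 to -0.0081 without 1 mouse. No bin passed under any alternative run, and probes passed only in stroma fitted alone (112 probes). Of these, 48 were higher (1.60% against 1.28% of all probes) and 64 lower (2.13% against 1.96%). In epithelia fitted alone 0 probes passed, and why more probes passed in stroma was not tested. In epithelia the bin at 130 to 140 Mb turned to -0.00036 over probes well above background, -0.035 with the centering on all probes kept, and ranged over -0.013 to 0.015 without 1 mouse, and that at 50 to 60 Mb over -0.080 to 0.15. For epithelia minus stroma the bin at 100 to 110 Mb turned to 0.035 without the epithelia of mouse 2, its stroma kept unpaired, and ranged over -0.15 to -0.010 without 1 mouse.

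At a penalty of 10, called stretches on chromosome 7 in mice 1, 2 and 3 numbered 5, 17 and 4 in epithelia. In stroma they numbered 22, 10 and 6. Over all chromosomes the counts were 119, 163 and 47 in epithelia and 156, 136 and 70 in stroma. At a penalty of 40 the chromosome 7 counts were 0, 2 and 0 in epithelia and 1, 0 and 0 in stroma. Over all chromosomes they were 3, 18 and 5 in epithelia and 7, 1 and 3 in stroma. With a limit of 0.15 the chromosome 7 counts were 1, 10 and 0 in epithelia and 6, 2 and 0 in stroma. Over all chromosomes they were 28, 67 and 17 in epithelia and 39, 17 and 7 in stroma. With a limit of 0.5 the chromosome 7 counts were 0, 2 and 0 in epithelia and 3, 0 and 0 in stroma. Over all chromosomes they were 6, 13 and 2 in epithelia and 21, 6 and 2 in stroma. With normexp the chromosome 7 counts were 0, 4 and 0 in epithelia and 5, 0 and 0 in stroma. Over all chromosomes they were 15, 30 and 4 in epithelia and 34, 9 and 3 in stroma. With loess the chromosome 7 counts were 0, 7 and 0 in epithelia and 6, 0 and 0 in stroma. Over all chromosomes they were 9, 38 and 9 in epithelia and 45, 9 and 7 in stroma. Over probes well above background the chromosome 7 counts were 0, 2 and 0 in epithelia and 4, 0 and 1 in stroma. Over all chromosomes they were 15, 19 and 8 in epithelia and 40, 5 and 7 in stroma. The cause of these changes was not tested. Fewer probes were well above background on the arrays of mice 1 and 2 than on those of mouse 3, and what this did to the levels was not tested beyond the alternatives without dim probes.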
